A study of Mus musculus with 4 samples.

Results

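The naive pluripotency genes Pou5f1, Nanog, Sox2, Klf4, Esrrb, Tfcp2l1, Zfp42, Prdm14, Tbx3 and Dppa3 are 10 of the 22380 protein-coding genes of the annotation. Their CpG sites were taken from 5 kb upstream of the 5′ end of each gene to its 3′ end in mm9, and split into a promoter window, within 1 kb of the 5′ end, and the rest. A site entered when at least 10 reads covered it. In all, 573 sites of these genes reached that depth in 1 or more of the 4 libraries, of 981048 such sites in the genome, and 244 reached it in all 4 libraries, of 400195. The mm9 sequence of the 10 spans holds 4975 CpG dyads, so most of their CpGs were not measured.

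The methylation of mouse ES cells was measured by RRBS-seq, in which MspI cuts the DNA at CCGG and bisulfite converts unmethylated cytosines, and which does not separate 5-methylcytosine from 5-hydroxymethylcytosine. Chr4-cl KO ES cells lack a cluster of KRAB zinc finger genes on chromosome 4 through a CRISPR/Cas9 deletion, and Chr4-cl WT ES cells carry the cluster. Each genotype was grown in serum, meaning standard ES cell medium with FCS and LIF, or for a week in 2i + Vitamin C. The 4 conditions had 1 library each, so no value below has a replicate, and each test compares 2 libraries and not 2 conditions. Per the study's methods, Chr4-cl KO ES cells came from mice on a B6;129 background with the cre/ERT allele of Gt(ROSA)26Sor, and KO and WT clones were picked one by one after the deletion, so a difference between genotypes cannot be told apart from a difference between clones. The files hold DNA methylation only, and the ES cell identity was not checked by expression.

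Naive pluripotency is the state of the inner cell mass before implantation. In culture it rests on LIF signalling through STAT3 and on a set of transcription factors that activate each other, with Oct4 (Pou5f1), Sox2 and Nanog at its core. Serum keeps ES cells in a mixed state in which part of the cells express some of these genes weakly. The 2i inhibitors block MEK and GSK3 and push the cells toward the naive state, in which methylation falls across the genome, and Vitamin C acts as a cofactor of the TET enzymes that oxidize 5-methylcytosine. CpG-rich promoters are normally unmethylated in ES cells, whereas CpG-poor promoters and gene bodies can carry methylation.

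Between 42672691 and 90649194 reads fell on CpG dyads per library, and the median depth of sites with at least 10 reads was 25 in KO 2i + Vitamin C and 42 to 50 in the other 3 libraries. In the deleted span on chromosome 4, the libraries labelled KO held 820 reads in serum and 1467 in 2i + Vitamin C, against 85282 and 105120 in WT. The 10 genes had 389 sites in WT serum, 386 in KO serum, 504 in WT 2i + Vitamin C and 341 in KO 2i + Vitamin C. Of these, 178, 168, 210 and 139 lay in promoter windows. The shallowest library thus covered the fewest sites, and Zfp42 had no covered site in it.

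The sequences of 6 stretches show what was measured at the sites the results turn on. They are mm9 reference sequence, written 5′ to 3′ on the strand of the gene, and capitals mark the CpGs that reached 10 reads in at least 1 library. The CpG-dense stretch upstream of Sox2 stands for the promoters without methylation (chr3:34548725-34548865, + strand). The stretch upstream of Esrrb is its annotated promoter (chr12:87701675-87701967, + strand), and 2 intronic stretches of Esrrb differed between genotypes in serum (chr12:87831685-87831845, + strand) or kept methylation in 2i + Vitamin C (chr12:87748060-87748192, + strand). The Prdm14 stretch spans an intron and a coding exon (chr1:13108690-13108860, - strand), and the Dppa3 stretch covers its first coding exon and intron (chr6:122576680-122576857, + strand).
Sox2 upstream: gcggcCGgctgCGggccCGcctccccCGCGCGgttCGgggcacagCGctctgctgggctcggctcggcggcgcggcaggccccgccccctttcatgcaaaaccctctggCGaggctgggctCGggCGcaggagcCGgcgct
Esrrb upstream: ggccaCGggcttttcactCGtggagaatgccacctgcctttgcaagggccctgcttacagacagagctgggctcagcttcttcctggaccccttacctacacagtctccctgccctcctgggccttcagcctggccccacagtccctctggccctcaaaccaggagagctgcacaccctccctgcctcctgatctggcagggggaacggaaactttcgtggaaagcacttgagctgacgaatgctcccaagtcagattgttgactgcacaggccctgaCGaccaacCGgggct
Esrrb intron near 46 kb: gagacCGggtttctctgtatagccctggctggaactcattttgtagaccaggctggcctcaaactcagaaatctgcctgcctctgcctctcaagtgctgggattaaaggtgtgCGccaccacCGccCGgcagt
Esrrb intron near 130 kb: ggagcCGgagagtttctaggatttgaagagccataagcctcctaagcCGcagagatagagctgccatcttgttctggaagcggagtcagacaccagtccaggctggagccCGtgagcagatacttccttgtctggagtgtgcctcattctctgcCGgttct
Prdm14 intron and exon: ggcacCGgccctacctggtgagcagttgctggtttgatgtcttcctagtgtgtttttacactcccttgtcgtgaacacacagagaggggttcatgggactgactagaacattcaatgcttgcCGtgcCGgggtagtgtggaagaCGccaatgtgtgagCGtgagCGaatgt
Dppa3 first exon and intron: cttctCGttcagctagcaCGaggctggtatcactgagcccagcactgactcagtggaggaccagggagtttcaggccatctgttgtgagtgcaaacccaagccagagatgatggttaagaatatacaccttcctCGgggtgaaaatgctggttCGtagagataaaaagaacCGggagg
The Sox2 stretch holds 20 CpGs in 141 bases, while the Esrrb promoter stretch holds 7 in 293 bases and the Dppa3 stretch 5 in 178 bases. All but 1 of the 6 stretches are close to unique in mm9, where a 20-base piece of them occurs a median of 1.0 time and at most 2 times on the chromosomes. The exception is the Esrrb stretch near 46 kb, where 91 of 114 such pieces occur over 100 times and the median is 1927.5. This stretch is thus repeated in the genome, and the effect of its copies on the placement of reads was not tested.

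In WT serum, the promoter windows with covered sites fell into a large group with almost no methylation and a pair with high methylation. Those of Pou5f1 and Nanog had no covered site in serum. The CpG-rich windows were those of Klf4, Sox2 and Tbx3, with 179, 159 and 142 CpGs and an observed to expected CpG ratio of 0.86, 0.81 and 0.82. Those of Esrrb, Dppa3, Pou5f1 and Nanog had 42, 44, 44 and 34 CpGs and ratios from 0.26 to 0.42. Nanog has 2 CCGG sites in its window and Pou5f1 has 6, and 23.8% and 48.6% of genes have fewer. MspI fragments begin and end at these sites, so they set which CpGs could be read.

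Sox2 encodes the HMG-box partner of Oct4. Mean methylation in its promoter window was 1.14% in WT serum (33 sites, SD over sites 1.90), 1.78% in KO serum (33 sites, SD 1.49), 1.55% in WT 2i + Vitamin C (33 sites, SD 1.72) and 1.07% in KO 2i + Vitamin C (31 sites, SD 1.99). No site of the window exceeded 10% in any library. All covered Sox2 sites also lie within Sox2ot, a noncoding gene that overlaps it. Klf4, a zinc finger factor downstream of LIF and STAT3, had 1.47% in WT and 1.78% in KO serum (58 sites each) and 1.95% and 1.12% in 2i + Vitamin C (61 and 46 sites). Tbx3, a T-box factor that acts downstream of LIF, had 1.16% and 2.00% in serum (42 and 36 sites) and 1.54% and 0.595% in 2i + Vitamin C (44 and 30 sites). These 3 windows lay below the median over all protein-coding genes in every library. That median was 1.596%, 2.54%, 2.22% and 1.17% in WT serum, KO serum, WT 2i + Vitamin C and KO 2i + Vitamin C. In WT serum 23.1% of genes had a lower promoter window than Sox2, 43.5% than Klf4 and 24.2% than Tbx3.

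Tfcp2l1 encodes a CP2-family factor that is a target of STAT3. Its promoter window had 2.50% in WT and 3.33% in KO serum (15 and 17 sites) and 2.41% and 1.41% in 2i + Vitamin C (34 and 19 sites). Zfp42 (Rex1), a zinc finger gene used as a marker of naive cells, had 4 upstream sites with 17 to 21 reads in WT serum and values of 0%, 0%, 5.88% and 5.88%. In KO serum only 2 of them were covered, both at 0% with 12 reads, and in WT 2i + Vitamin C the 4 sites ranged from 0% to 3.70%. Pou5f1 had 3 promoter sites, covered only in WT 2i + Vitamin C by 10 to 15 reads, and all were at 0%. Pooled over all reads at any depth, the Pou5f1 window held 0 methylated of 28 reads in WT serum (95% Wilson interval 0 to 12.1%), 2 of 22 in KO serum, 0 of 52 in WT 2i + Vitamin C and 1 of 86 in KO 2i + Vitamin C. For Nanog no promoter site reached 10 reads in any library, so that its promoter is undetermined at this depth. All measured values at these promoters were low, but for Pou5f1, Nanog and Zfp42 they rest on few reads.

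Esrrb encodes an orphan nuclear receptor that GSK3 inhibition induces. Its promoter window stood far above those of the genes named so far, at 66.6% in WT serum (5 sites, SD over sites 19.3), 81.5% in KO serum (5 sites, SD 14.7) and 16.95% in WT 2i + Vitamin C (5 sites, SD 10.7). In KO 2i + Vitamin C a lone intronic site was covered, with 21.3% of 89 reads. In WT serum 95.5% of genes had a lower promoter window than Esrrb, and in WT 2i + Vitamin C 94.7% did. Dppa3 (Stella) encodes a maternal factor known to shield methylated DNA in the early embryo. Its promoter window had 63.9% in WT serum (4 sites, SD 11.3) and 10.1% in WT 2i + Vitamin C (5 sites, SD 8.28), on 58 and 56 reads in all. No site of it reached 10 reads in either KO library. At any depth, it held 46 methylated of 75 reads in WT serum, 10 of 32 in KO serum, 6 of 65 in WT 2i + Vitamin C and 14 of 57 in KO 2i + Vitamin C. These pooled shares are 61.3%, 31.3%, 9.23% and 24.6%, with 95% Wilson intervals of 50.02 to 71.5%, 18.0 to 48.6%, 4.30 to 18.7% and 15.2 to 37.1%. The serum intervals do not overlap, and the KO share is the lower, whereas the promoter means of Esrrb and Prdm14 were higher in KO serum. The pooled sites differ between the libraries (9, 7, 10 and 23 sites) and the intervals cover counting error only, so the genotypes were not tested here.

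Prdm14 encodes a PR-domain zinc finger factor known to hold down the de novo methyltransferase genes in ES cells. Its promoter mean lay between these groups in KO serum and near those of the low promoters in the other libraries. Its promoter window had 3.77% in WT serum (17 sites, SD over sites 3.70), 9.82% in KO serum (17 sites, SD 6.04), 2.22% in WT 2i + Vitamin C (21 sites) and 0.921% in KO 2i + Vitamin C (12 sites). The KO serum sites ranged from 1.24% to 25.5% and the WT serum sites from 0% to 14.0%, so the ranges overlapped. In WT serum the promoter means thus ran, from high to low, Esrrb, Dppa3, Prdm14, Zfp42, Tfcp2l1, Klf4, Tbx3 and Sox2. By the 95% Wilson intervals of the pooled reads in WT serum, Esrrb (59.1 to 72.8%) and Dppa3 (50.9 to 74.9%) overlap. That of Prdm14 (2.44 to 4.14%) overlaps those of Zfp42 (0.734 to 9.21%) and Tfcp2l1 (1.94 to 3.58%) and lies above those of Klf4 (1.01 to 2.01%), Tbx3 (0.799 to 1.94%) and Sox2 (0.594 to 1.19%). These intervals cover counting error only. The plot of site methylation by gene shows both windows.

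**Figure D1:**
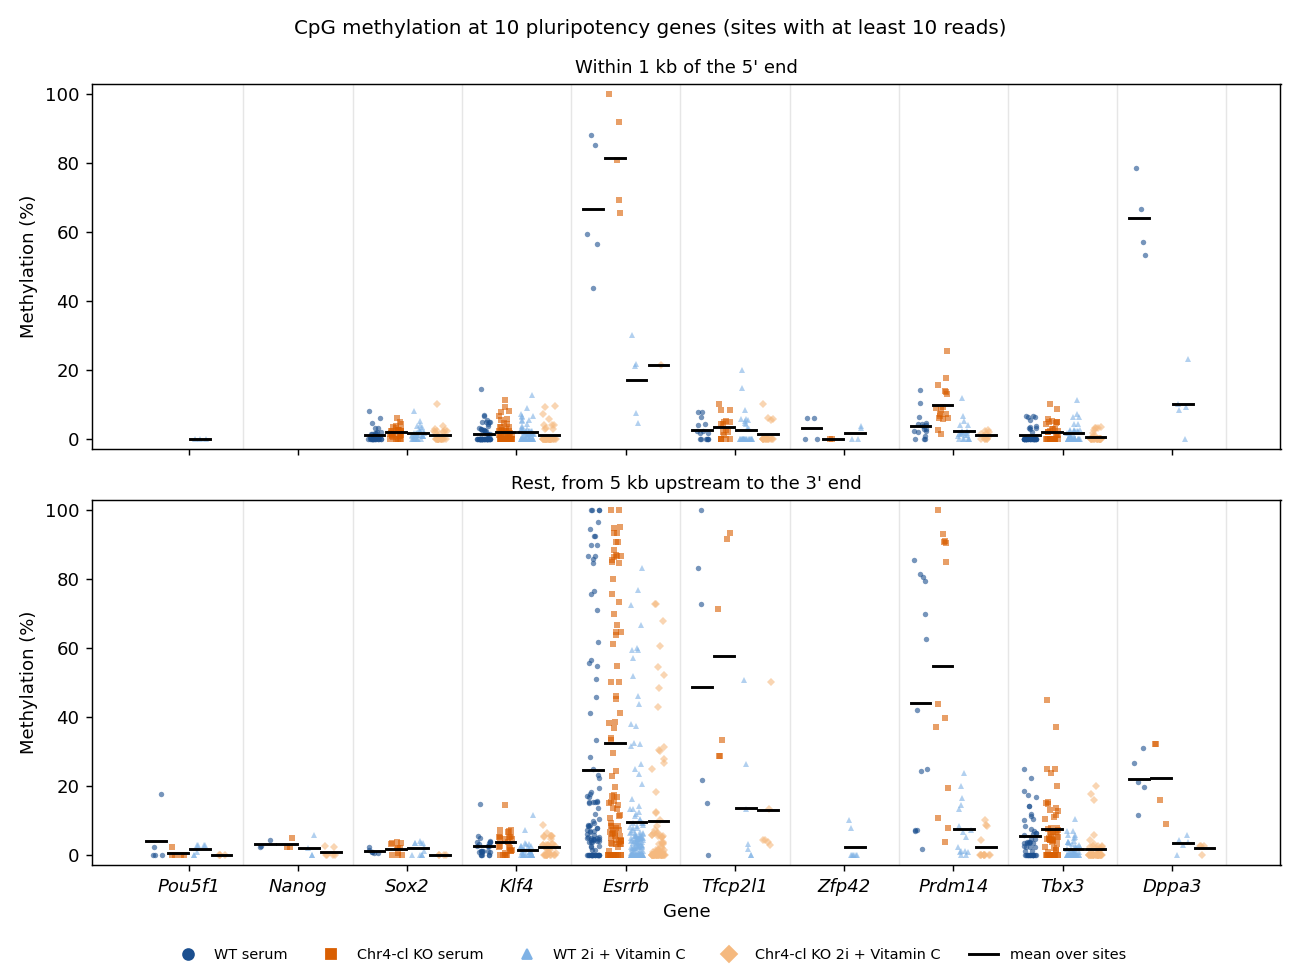
Methylation (%) of each CpG site with at least 10 reads at the 10 genes, within 1 kb of the 5′ end (top) and in the rest of the span (bottom), with 1 colour and marker per library and a bar at the mean over sites. Promoter sites of Esrrb and Dppa3 stand apart in WT serum, with means of 66.6% and 63.9%, and most other promoter sites are near 0. No promoter site of Dppa3 was covered in KO serum.

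Outside the promoter windows, the members ranged from almost no methylation to intermediate levels and stood below the median gene. The median over all protein-coding genes was 63.9% in WT serum, 70.8% in KO serum, 24.1% in WT 2i + Vitamin C and 18.6% in KO 2i + Vitamin C. In WT serum the means were 48.8% for Tfcp2l1 (6 sites), 44.2% for Prdm14 (13 sites), 24.7% for Esrrb (98 sites), 22.0% for Dppa3 (5 sites), 5.38% for Tbx3 (49 sites), 3.96% for Pou5f1 (5 sites), 3.03% for Nanog (3 sites), 2.48% for Klf4 (26 sites) and 1.004% for Sox2 (6 sites). In KO serum Tfcp2l1, Prdm14, Esrrb and Dppa3 had 57.8%, 54.8%, 32.3% and 22.3%, and Tbx3, Klf4, Nanog, Sox2 and Pou5f1 had 7.47%, 3.59%, 3.16%, 1.79% and 0.426%. In WT cells in 2i + Vitamin C the highest was Tfcp2l1 with 13.6%, then Esrrb with 9.41% and Prdm14 with 7.61%, and no other member exceeded 3.37%. In KO 2i + Vitamin C they were Tfcp2l1 with 13.0% and Esrrb with 9.66%, and none of the others exceeded 2.39%. For Nanog, the homeodomain factor of the core, the 3 sites covered in all libraries lie 4.48 to 4.62 kb upstream and did not exceed 5.88% in any of them. For Pou5f1 the 5 sites covered in serum lie in an internal untranslated exon and an intron 2.01 to 2.15 kb inside the gene, and 2 intronic sites at 1.23 and 1.24 kb were covered in WT 2i + Vitamin C only, by 11 and 13 reads at 0%. The highest of the 5, 17.6% of 34 reads in WT serum, was at 0% of 28 reads in KO serum, while the other 4 ranged from 0% to 2.83%. For Zfp42 the 8 coding exon sites were covered in WT 2i + Vitamin C only, with a mean of 2.21%.

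The first comparison asked whether deletion of the zinc finger cluster goes with a change of methylation at these genes in serum. At 6 sites of Esrrb methylation rose in Chr4-cl KO against WT cells, by 20.8 to 38.8 percentage points, and none of the other 9 genes had a called site. To be called, a site had to differ by at least 20 points and to pass Fisher's exact test at an adjusted p under 0.05 (Benjamini-Hochberg, over every site tested in the genome). Of 354 member sites tested, 6 were called higher (1.69%) and 0 lower, while of all sites tested 1.82% were called higher and 0.115% lower. By the difference alone 21 were higher and 0 lower, against 5.69% and 0.677% of all sites. The mean difference over member sites was 3.96 points and over all sites 3.36 points, so the share and the mean were near those of the genome.

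The 6 Esrrb sites lie in 3 places. In the intron at 129.62 to 129.73 kb from the 5′ end, the stretch printed as Esrrb intron near 130 kb, 3 sites went from 6.82%, 14.9% and 19.4% in WT serum to 34 of 75, 50 of 100 and 53 of 97 methylated reads in KO serum, on 44 to 67 reads in WT serum. The fourth site of the stretch, with 13.6% of 22 reads and 46.2% of 26, was not called. In 2i + Vitamin C these 4 sites had a mean of 4.19% in WT cells, and the 3 covered in KO cells had 1.15%. At 94.5 to 94.6 kb, also intronic, a site went from 47 of 83 to 64 of 80 methylated reads, and its neighbour at chr12:87796667 from 45.8% of 83 to 84.6% of 78 reads. The latter had the largest difference of the called sites, 38.8 points (Fisher's exact test, adjusted p = 2.2e-05), and in 2i + Vitamin C it was at 0.641% of 156 WT reads and 2.06% of 97 KO reads. The sixth site, 2.22 kb upstream, went from 54.9% of 144 to 75.6% of 160 reads (Fisher's exact test, adjusted p = 0.0065), and to 6.58% and 7.06% in 2i + Vitamin C. That the KO value exceeded the WT value in serum at all of them follows from how they were selected. In 2i + Vitamin C both genotypes were low at these sites. Sites within the same MspI fragment share reads, so the 3 sites near 130 kb are not 3 independent measurements.

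Across Esrrb, 66 of 88 sites tested in serum were higher in KO cells, 14 lower and 8 equal, with a mean difference of 9.70 points. For Prdm14, 28 of 30 sites were higher and 2 lower, with a mean of 8.04 points and a range from -4.90 to 30.0, but no site was called. Its sites between 8.39 and 8.68 kb, in an intron and a coding exon, 6 of whose 7 sites lie in the printed stretch and were covered in serum, averaged 76.6% in WT serum and 91.7% in KO serum. The 4 sites of this group that share a fragment had 322 to 324 reads in WT and 461 to 464 in KO serum, and went from between 79.3% and 85.4% to between 90.5% and 93.1%. Tbx3 had 50 of 82 sites higher and 15 lower (mean 2.32 points), and Sox2 27 of 39 higher and 7 lower (mean 0.722 points). The share of all genome sites higher in KO serum is not given here, so these counts have no background. The median difference was 1.53 points over member sites and 1.24 points over all sites tested. Sites on the same fragment share reads, so the sites counted are not independent. The 4 tested sites of Dppa3, in a coding exon and intron between 2.30 and 2.49 kb from its 5′ end, had a mean of 22.3% in both genotypes. Of the genes with at least 5 tested sites, only Pou5f1 had a negative mean, -3.53 points, and that rests on the site described above. At all sites of the genome with 10 to 50% in WT serum, the KO value was 11.9 points higher on average, and at the 44 member sites of that class it was also 11.9 points higher. At sites with 50 to 80% the member mean was 18.2 points (14 sites) and the genome mean 11.4 points. The WT serum value both set these classes and entered the difference, and no test was made of them.

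No window was called between genotypes in serum. Of 6 promoter windows 0 were called, against 0.926% higher and 0.103% lower of all promoter windows, and of 9 remaining windows 0, against 2.77% higher and 0.129% lower. A window was called when the reads pooled over at least 3 sites passed Fisher's exact test with an adjusted p under 0.05 over the windows of all genes and the mean over sites differed by at least 20 points. Below the limit of 20 points, the largest differences with an adjusted p under 0.05 were those of the Esrrb promoter, 14.9 points (exact test, adjusted p = 0.0086), the rest of Prdm14, 10.6 points (adjusted p = 2.0e-26), the rest of Esrrb, 9.38 points (adjusted p = 0.0026), and the Prdm14 promoter, 6.05 points (adjusted p = 1.5e-10). With reads pooled in place of the mean over sites, the rest of Esrrb differed by 2.83 points and that of Prdm14 by 15.2 points. The median difference over the 9 remaining windows was 1.18 points, and over all such windows 4.06 points. The plot of KO against WT methylation shows the sites of both media.

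**Figure D2:**
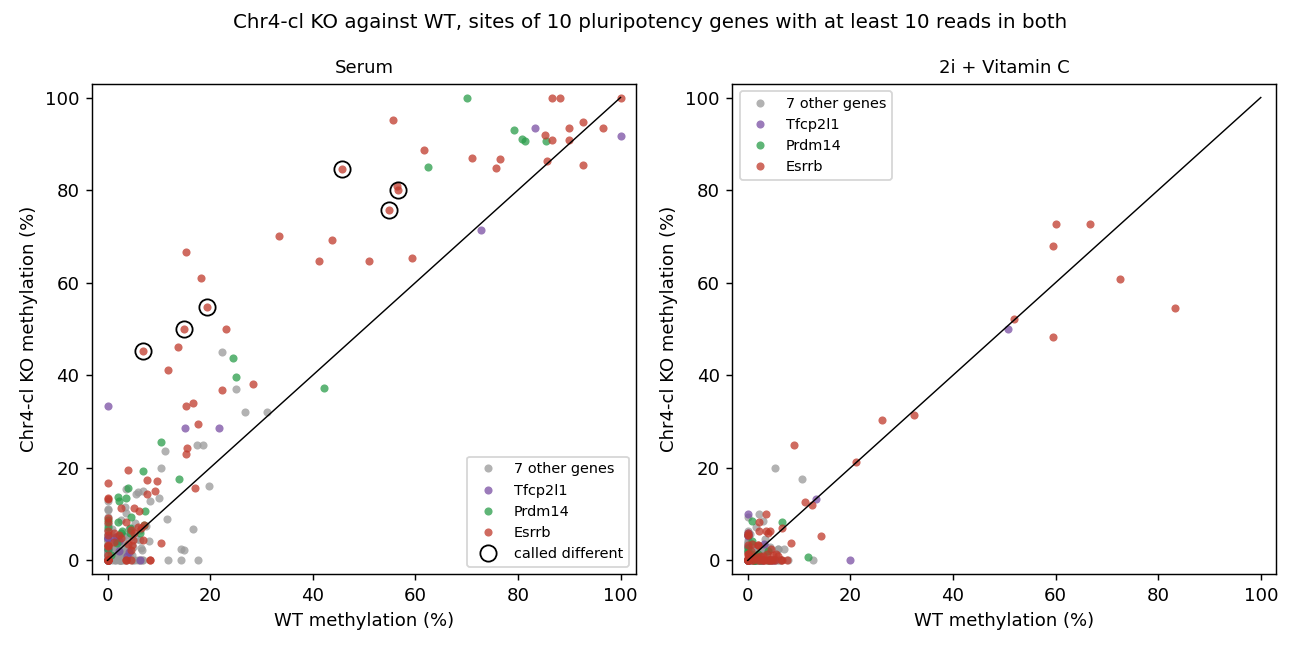
Methylation (%) of each member site in WT (x axis) and Chr4-cl KO cells (y axis), in serum (left) and in 2i + Vitamin C (right), for sites with at least 10 reads in both libraries. Rings mark the 6 Esrrb sites called higher in KO serum, which lie above the diagonal, and no site is called in 2i + Vitamin C.

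In 2i + Vitamin C no site of these genes differed between the genotypes by these limits. Of 285 member sites tested, 0 were called, while 0.361% of all sites were called lower and 0.0897% higher in KO cells. By the difference alone 2 were lower and 0 higher, against 3.4% and 1.47% of all sites. The KO value was higher at 85 sites, lower at 132 and equal at 68, the mean difference was -0.373 points, and over all sites it was -1.73 points. Esrrb had 26 of 70 sites higher and 32 lower, and Prdm14 had 6 of 17 higher and 10 lower. None of 5 promoter windows was called, against 0.127% lower and 0.0508% higher of all promoter windows, nor any of 8 remaining windows, against 0.881% lower and 0.099% higher. Over 10 shared sites the Prdm14 promoter was at 2.65% in WT cells and 1.11% in KO cells. Median depth at the tested sites was 34 reads in KO and 83 in WT cells, and in serum it was 52 and 43.

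The second question was how far methylation falls at these genes in 2i + Vitamin C. In WT cells 49 of 378 member sites fell (13.0%) and 0 rose, whereas 31.8% of all sites were called lower and 0.144% higher. The 49 sites were 30 of Esrrb, 9 of Prdm14, 5 of Dppa3, 3 of Tfcp2l1 and 2 of Tbx3, and Pou5f1, Nanog, Sox2, Klf4 and Zfp42 had none. Most member sites could not fall by 20 points, because 292 of the 378 were below 10% in WT serum. Of all sites tested, 337840 of 628419 were. The 21 member sites with at least 80% in WT serum went from a mean of 90.7% to 41.0%, and all such sites in the genome from 91.5% to 49.3%. For the 18 member sites from 50 to 80% the means were 64.4% and 11.5%, and for all such sites 67.3% and 21.8%. The 47 sites from 10 to 50% went from 20.1% to 2.65%. Those under 10% had 2.02% and 1.85%. These classes are set by the WT serum value, which also enters the difference, and no test was made of them.

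Esrrb and Dppa3 had the called promoter windows of WT cells. The Esrrb promoter window went from 66.6% to 16.95%, a difference of -49.7 points (Fisher's exact test on 178 and 454 reads, adjusted p = 1.4e-31). At its 4 upstream sites, printed above, the values in WT serum were 88.2%, 85.3%, 43.8% and 59.4% and in WT 2i + Vitamin C 30.1%, 21.5%, 7.53% and 4.44%. Every site thus fell, and the highest in serum stayed the highest. The 4 shared Dppa3 sites went from 66.7%, 53.3%, 57.1% and 78.6% to 8.33%, 9.09%, 0% and 23.1%, on 10 to 15 reads each, a difference of -53.8 points (exact test, adjusted p = 5.4e-08). These 2 of 8 promoter windows stand against 6.89% called lower of all promoter windows (0.0% higher). The other 6 member windows differed by -1.32 to 0.485 points.

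Outside the promoters, 2 of 9 windows were called lower in WT cells, against 69.3% of all such windows, and 0 higher, against 0.00827%. Prdm14 went from 44.2% to 7.42% (-36.7 points, 13 sites, adjusted p of the exact test 2.8e-285) and Tfcp2l1 from 48.8% to 15.9% (-32.9 points, 6 sites, adjusted p of the exact test 3.7e-13). With pooled reads Prdm14 went from 68.0% to 11.1%, a difference of -56.9 points, while at its sites covered in all 4 libraries the difference was -14.5 points and was not called. The rest of Dppa3, with -18.6 points, and that of Esrrb, with -14.8, passed by the p and not by the difference. The median difference of the 9 windows was -3.85 points and that of all windows -33.2 points.

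The named sites are those with the largest called difference in each gene, so they do not show how the fall was distributed within it. In Esrrb the largest called difference was in the last untranslated exon, at chr12:87861282, from 94.4% of 18 to 13.3% of 15 reads (exact test, adjusted p = 1.3e-05). In Prdm14 it was an intronic site at chr1:13108701 in the printed stretch, from 85.4% of 323 to 16.4% of 286 reads (adjusted p of the exact test 5.9e-68). Among all sites with at least 80% in WT serum, 6.06% ended lower than this Prdm14 site in WT 2i + Vitamin C, and 4.06% lower than the Esrrb site. Both sites were picked for the size of their fall, so low shares follow in part from that choice. Over the member sites of that class the share ran from 4.05% to 93.1%. In Dppa3 the site was at chr6:122576685, in an intron 257 bp from the 5′ end, from 66.7% to 8.33%, and with reads thinned to the smaller coverage of the pair its difference of -50 points was not called. In Tfcp2l1 it was intronic, at chr1:120555501, from 72.7% of 22 to 13.3% of 30 reads. The neighbouring coding exon site, 99 bp further on, kept 50.8% of 63 reads, from 100% of 38. In Tbx3 it was 4.66 kb upstream, at chr5:120116022, from 6 of 24 to 0 of 71 methylated reads, a call that was also lost with thinned reads (-25 points). The plot of Prdm14, Dppa3 and Tfcp2l1 along the genes shows the groups of sites.

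**Figure D3:**
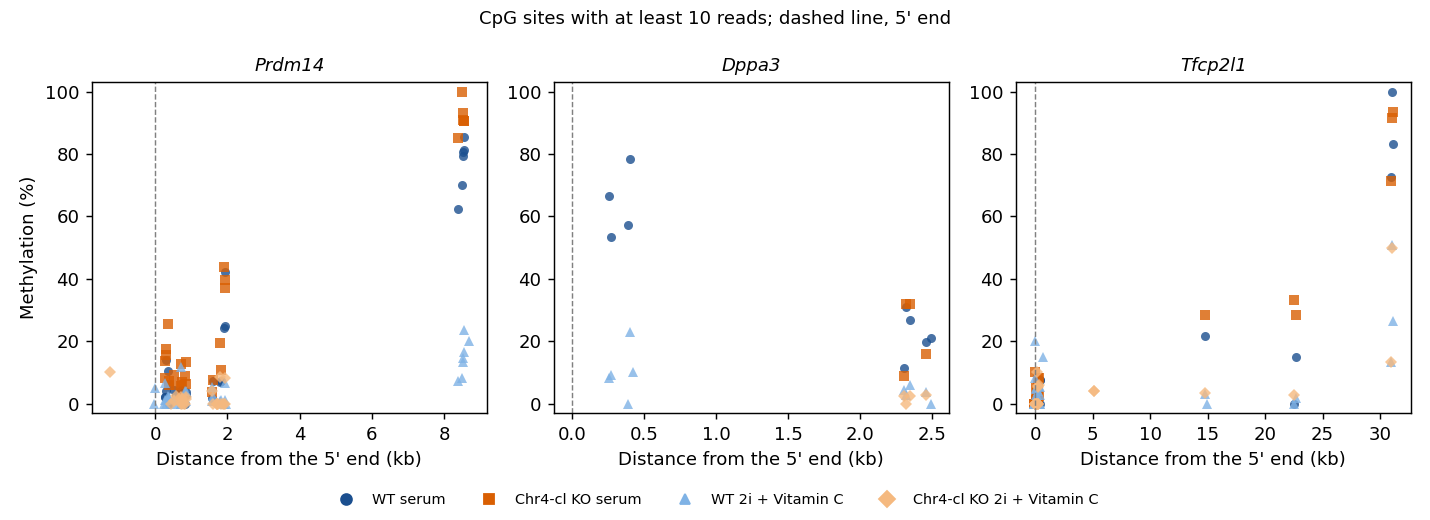
Methylation (%) of each CpG site with at least 10 reads against the distance from the 5′ end (kb, in the direction of transcription) for Prdm14, Dppa3 and Tfcp2l1, with 1 colour and marker per library. Sites within 1 kb of the 5′ end do not exceed 20.0% for Tfcp2l1 in any library. For Prdm14 they reach 25.5% in KO serum and at most 14.0% in the other libraries. The Prdm14 sites from 8.39 to 8.68 kb have means of 76.6% and 91.7% in WT and KO serum and 14.8% in WT 2i + Vitamin C.

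In Chr4-cl KO cells the fall involved the same 5 genes that had called sites in WT cells. Of 249 sites tested, 27 fell (10.8%) and 0 rose: 16 of Esrrb, 3 each of Tfcp2l1, Prdm14 and Tbx3, and 2 of Dppa3. Of all sites, 28.6% were called lower and 0.0297% higher. The largest called difference was at the Esrrb site chr12:87796667 described above, from 84.6% of 78 to 2.06% of 97 reads (-82.6 points, exact test, adjusted p = 4.3e-31). In Prdm14 it was a coding exon site 1.91 kb inside the gene, at chr1:13115334, from 43.8% of 48 to 0% of 50 reads, and in WT cells that site went from 24.4% of 41 to 0% of 84. In Dppa3 it was the coding exon site chr6:122578749, from 32.1% of 53 to 0% of 40 reads, with 31.0% of 71 and 2.92% of 171 in WT cells. In Tfcp2l1 it was again chr1:120555501, from 71.4% of 21 to 13.3% of 30 reads, nearly as in WT cells. In Tbx3 it was an upstream site at chr5:120115858, from 45.0% of 20 to 5.88% of 17 reads, and this call was lost with thinned reads (-35.3 points).

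None of the 5 promoter windows tested in KO cells was called, against 6.44% called lower and 0.0172% higher of all promoter windows, but those of Esrrb and Dppa3 were not among them for lack of reads. The Prdm14 promoter, with 7.31% and 1.11% over 10 sites, differed by -6.21 points. Of 8 remaining windows 4 were called lower and 0 higher, against 69.9% and 0.0103% of all. These were Tfcp2l1 with -38.8 points, Esrrb with -22.1, Dppa3 with -20.4 and Prdm14 with -20.1. With pooled reads the rest of Esrrb differed by -17.4 points and was no longer called, and with a promoter window of 500 bp the rest of Prdm14 differed by -11.9 points and was not called either. The Prdm14 sites from 8.39 to 8.68 kb had 0 to 3 reads each in KO 2i + Vitamin C and did not enter its window here. Median differences were -13.5 points over the 8 windows and -38.8 over all windows. The 2 comparisons between media use separate libraries, whereas each library also enters a comparison between genotypes.

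Esrrb, with 165512 bp of span the longest of the members, showed the widest range within a gene. Its annotation has 4 starts of coding transcripts, at 0, 60.5, 60.8 and 109 kb from the 5′ end. Around the most upstream start the serum values were high, as given above. Around the start at 60.5 kb, within 1 kb, the mean was 2.78% in WT (28 sites, SD over sites 2.47) and 5.41% in KO serum (28 sites, SD 5.34), and 2.13% and 1.76% in 2i + Vitamin C (29 and 16 sites). The windows of the starts at 60.5 and 60.8 kb overlap, and around the latter the WT and KO serum means were 3.11% and 5.67%. Around the start at 109 kb, 2 sites had 13.7% in WT and 9.74% in KO serum, 3 sites had 1.98% in WT 2i + Vitamin C, and none was covered in KO 2i + Vitamin C. The start at 60.5 kb was singled out after its values were seen, and no test was made. A group of 12 sites at 41.8 to 42.0 kb, in an intron, was also low, with 2.17% in WT (10 sites) and 3.31% in KO serum. The member with the highest promoter methylation in WT serum by its annotated 5′ end thus had low methylation around the starts at 60.5 and 60.8 kb, whose windows overlap.

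Other stretches of Esrrb were high in serum, and some of this methylation remained in 2i + Vitamin C. The 3 intronic sites near 16.2 kb were at 100% in WT serum on 12 to 14 reads, and had 70.0% on average in WT and 66.7% in KO 2i + Vitamin C. The 4 sites of the repeat stretch near 46 kb had 89.8% and 93.3% in WT and KO serum and 58.8% in WT 2i + Vitamin C. Only 3 of them were covered in KO 2i + Vitamin C, with 58.9%, and these 3 had 63.8% in WT 2i + Vitamin C. The 3 sites near 29 kb that all libraries covered had 90.6% and 90.4% in WT and KO serum, against 36.8% and 38.0% in WT and KO 2i + Vitamin C. Against them, the sites at 94.5 to 94.6 kb went from 51.2% and 82.3% to 2.49% and 4.19%. A second site of the last untranslated exon, near 159.25 kb, went from 15 of 15 to 6 of 13 methylated reads in WT cells and thus also kept part of its methylation. Among sites of the genome that had at least 80% in WT serum, between 41.6% and 83.6% ended lower than the 4 Esrrb sites near 46 kb in WT 2i + Vitamin C. This share was 67.8% to 93.1% for the 3 sites near 16.2 kb and 45.6% for the site near 159.25 kb. For the 3 sites near 29 kb it was 15.3%, 23.6% and 55.4%.

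**Figure D4:**
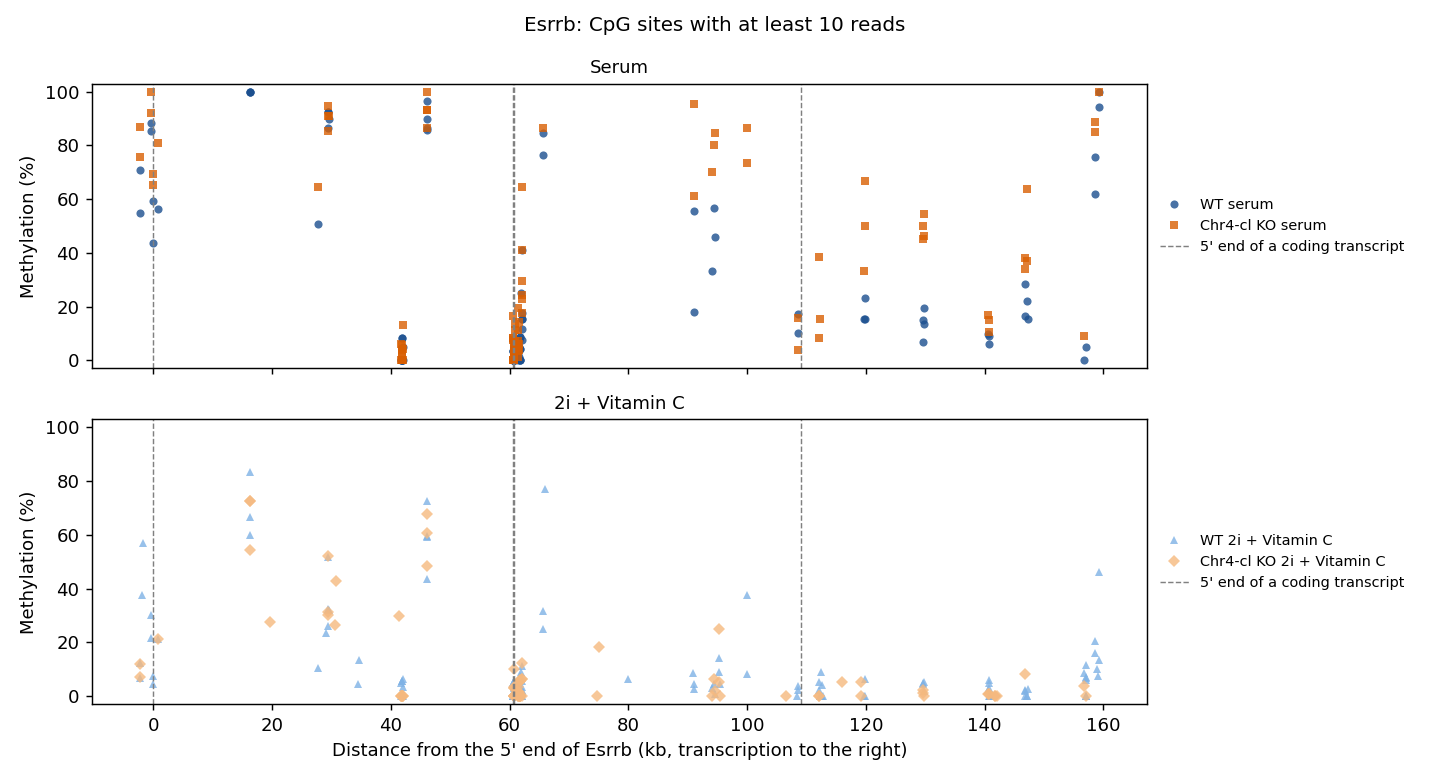
Methylation (%) of Esrrb sites with at least 10 reads against the distance from the annotated 5′ end (kb), in serum (top) and in 2i + Vitamin C (bottom), with WT and KO libraries in 2 colours and dashed lines at the 5′ ends of coding transcripts. Serum values are high around 0 kb and near 0 around 60.5 kb, the KO sites near 130 kb lie above the WT sites, and in 2i + Vitamin C the highest values are between 16.2 and 66 kb.

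By annotated position, member sites in introns had the most methylation, with 21.9% in WT serum, 28.0% in KO serum, 7.41% in WT 2i + Vitamin C and 8.05% in KO 2i + Vitamin C. Coding exons had 6.17%, 6.99%, 2.22% and 1.70% in the same order, untranslated exons 7.25%, 7.31%, 3.06% and 1.08%, and upstream sites 7.02%, 9.27%, 3.56% and 1.45%. These means mix genes, and Esrrb gave many of the intronic sites. At the 244 sites covered in all 4 libraries, which hold the set of sites fixed, the means were 7.87% in WT serum, 11.01% in KO serum, 3.45% in WT 2i + Vitamin C and 2.99% in KO 2i + Vitamin C. The same means over 400195 sites of the genome were 27.4%, 30.5%, 13.9% and 12.2%. The order of the 4 libraries was the same in both sets.

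The counts for other gene lists give a frame for these counts. Of 25 further genes of the pluripotency network, such as Klf2, Stat3, Lifr and Sall4, 16 promoter windows and 16 remaining windows could be tested between genotypes in serum. The rest of Mybl2, named here after its values were seen, was the 1 window called, 23.4 points higher in KO serum. Of all promoter windows in serum 0.926% were called higher and 0.103% lower, and of all remaining windows 2.77% and 0.129%. In 2i + Vitamin C 0 of 15 and 0 of 13 network windows were called. There 0.127% and 0.881% of all promoter and remaining windows were called lower, and 0.0508% and 0.099% higher. Of all promoter windows, 6.89% fell between media in WT and 6.44% in KO cells, and of all remaining windows 69.3% and 69.9%. In the network list 0 of 17 promoter and 4 of 16 remaining windows fell in WT cells, and 1 of 15 and 4 of 12 in KO cells. The promoter was that of Gbx2, a homeobox gene downstream of LIF, from 22.7% to 0.952% (5 sites, 157 and 111 reads, exact test adjusted p = 1.1e-07). Of 17 genes of primed cells and early lineages, 16 are in the annotation, and no window was called between genotypes in either medium. Between media 0 of 12 promoter and 1 of 14 remaining windows fell in WT cells, and 1 of 11 and 2 of 13 in KO cells, where the promoter was that of Lefty1, an inhibitor of Nodal signalling, from 48.7% to 16.8% (3 sites, 222 and 98 reads, exact test adjusted p = 5.7e-08). The median difference of the remaining windows between media in WT cells was -4.57 points for the network and -5.18 for the primed list, near the -3.85 of the members, and -33.2 over all genes.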

How the data were processed

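Genomic DNA of 4 samples, from both genotypes in both media, was digested with MspI and sequenced after bisulfite conversion. Per the study's methods, the authors used Trim Galore for trimming and Bismark for alignment to mm9, and joined both strands of a CpG dyad with a custom script, and no versions are given in the sources used here. The deposited files hold, per dyad, a read count, a methylated read count and the methylated fraction. In WT serum and KO 2i + Vitamin C a second table follows the first, with 1161870 and 1575598 rows, of which 59 and 54 reach 10 reads. All rows of repeated positions (332 and 830 rows) were left out.

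Methylation was recomputed as methylated over all reads at sites with at least 10 reads. Genes came from GENCODE vM1. Of the 10 members, 9 matched by symbol, and Tfcp2l1 matched by an older symbol, Tcfcp2l1. Sox1 of the primed list did not match. Where transcripts differ, the gene's outermost 5′ end was used. Sites and windows were compared by Fisher's exact test (two-sided), adjusted after Benjamini and Hochberg over all sites or windows of the genome (Python 3.11.15, numpy 2.4.6, pandas 2.3.3, numba 0.67.0), and the code was tested on simulated data. Sites in a window share reads, so its p-values are too small. Wilson intervals and all p-values cover counting error only, without the spread between cultures, and bisulfite reads without molecular identifiers are not independent molecules.

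All 10 members are named, each with its most different called site per comparison, and from the other lists the genes with a called promoter window. Members and lists were chosen with earlier results of these data known. Alternatives covered the coverage minimum (5 and 20 reads), the difference (10 points, or no test), the window (500 bp and 2 kb), pooled reads, sites shared by all libraries, and thinned reads. The alternative without Esrrb was added after seeing the data. Sequences were read from mm9.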

Additional observations from a re-analysis of the deposited data

Results flagged for a closer look

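For 6 pairs of windows the difference had opposite signs in the 2 settings compared. Each is given with its value, and with 1 library per condition the difference between the settings was not tested in any of them. The Prdm14 promoter window was 6.05 points higher in Chr4-cl KO than in WT cells in serum (17 sites) and different by -1.54 points in 2i + Vitamin C (10 sites), a gap of 7.59 points. The rest of Esrrb was 9.38 points higher in KO serum (83 sites) and differed by -0.724 points in 2i + Vitamin C (69 sites), a gap of 10.1 points. The Sox2 promoter window differed between genotypes by 0.639 points in serum and -0.362 in 2i + Vitamin C, a gap of 1.001 points. Between media, it differed by 0.404 points in WT and -0.603 in KO cells, a gap of 1.01 points. The Klf4 promoter window differed between media by 0.414 points in WT and -0.396 in KO cells, a gap of 0.810 points. That of Tbx3 differed by 0.485 and -1.30 points, a gap of 1.78 points. The medians over all windows changed sign in the same way. Over all promoter windows the genotypes differed by 1.07 points in serum and -0.893 in 2i + Vitamin C. Between media the median over all promoter windows was 0.377 points in WT and -1.32 in KO cells. Over all remaining windows the genotypes differed by 4.06 points in serum and -1.82 in 2i + Vitamin C.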

How the results depend on the processing

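No paired analysis was possible because each condition has 1 library. No called value changed direction under any alternative. Of 100 counts of called sites or windows, 87 stayed within 1.5 times the reported count. Many of these were reported as 0, and a count that stayed at 0 was taken as the same. The sites higher in KO serum numbered 21 with a difference of 20 points and no test, and 13 with 10 points and the test. Without Esrrb, which held all 6 called sites, there were necessarily 0. With 10 points 2 windows were called in that comparison, the Esrrb promoter and the rest of Prdm14. In 2i + Vitamin C 2 sites were lower in KO cells with no test and 1 with 10 points. The 49 sites that fell in WT cells became 31 with a minimum of 20 reads, 21 at sites covered in all 4 libraries and 19 without Esrrb, and there 1 site rose with thinned reads and 1 with 10 points. At sites covered in all 4 libraries 1 remaining or promoter window fell in WT cells instead of 4, since the Prdm14 stretch and the Esrrb and Dppa3 promoters drop out. Without Esrrb 11 sites fell in KO cells instead of 27. Of 71 values of single sites 68 kept their call, and with thinned reads the Dppa3 site 257 bp from the 5′ end and both Tbx3 sites lost it. Of 505 window values 467 kept call and size, 31 moved by more than their counting interval, 3 lost and 4 gained a call. The 3 were the rest of Prdm14 between media in WT cells at sites covered in all 4 libraries (-14.5 points) and in KO cells with the 500 bp window (-11.9 points), and the rest of Esrrb between media in KO cells with pooled reads (-17.4 points). With pooled reads the rest of Esrrb differed between genotypes in serum by 2.83 points, not 9.38. For lack of depth the promoter windows of Nanog and Pou5f1 were tested in no comparison, those of Zfp42 and Dppa3 only between media in WT cells, and that of Esrrb in no comparison with KO 2i + Vitamin C.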
